A study of Mus musculus with 12 samples.

Results

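The data are RNA sequencing libraries of the tibialis anterior, the muscle at the front of the shin, made mostly of fast fibres. The mice are labelled either as wild type (WT) or as lacking REV-ERB in skeletal muscle only (KO), and the muscle was taken at the time of day that the sample titles call ZT22. This comparison uses 6 of the 12 libraries of the series, 3 WT and 3 labelled KO, and the genes measured in them. The series' design text names other harvest times (ZT0 and ZT12), so the clock time is uncertain, while the grouping of the libraries is not. The labels give neither the strain, age or sex of the mice nor the driver of the deletion, its alleles or what the WT mice carried, and they speak of Rev-erbs in the plural without naming the genes or the deleted exons. They describe the replicates only as separate samples, so the p-values below measure the spread between these samples.

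REV-ERBα, encoded by Nr1d1, and REV-ERBβ, encoded by Nr1d2, are nuclear receptors that bind haem and silence transcription by recruiting the NCoR and HDAC3 corepressor complex. They occupy RORE elements, which the activating ROR receptors also bind, and so hold down Arntl (BMAL1), Clock, Npas2, Nfil3 and Cry1 in the part of the day when REV-ERB protein is abundant. BMAL1 with CLOCK or NPAS2 in turn drives, through E-boxes, the Period and Cryptochrome genes, Dbp, and Nr1d1 and Nr1d2 themselves. In muscle, REV-ERBα is known for effects on mitochondrial content, autophagy and the use of fuel.

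Values are FPKM (fragments per kilobase of transcript per 1000000 fragments) as deposited, listed for replicates 1, 2 and 3 in that order. Each gene's difference is the mean of the libraries labelled KO minus the mean of the WT libraries in log2(FPKM + 1), with its standard error from limma (n = 3 against 3). This scale understates the change of weakly expressed genes. A gene is said to have risen or fallen, always in the libraries labelled KO against WT, when its Benjamini-Hochberg adjusted p was under 0.05 over all 10117 genes averaging 1 FPKM or more. Since whole muscle was sequenced, fewer cells of a type and less RNA per cell cannot be told apart.

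Of the 10117 genes, 2261 differed (22.3%), of which 954 rose (9.43%) and 1307 fell (12.9%). The counts of gene lists below are to be read beside these shares, and several lists lay near them. Most of the changes were small. The median size among the genes that passed was 0.44 on the log2 scale, and 89 rose and 97 fell by at least 1. The 3 values of one genotype lay wholly above those of the other in 41.1% of the genes, with the libraries labelled KO higher in 18.2% and lower in 23.0%. On chromosome Y 3 of 5 tested genes differed (60.0%), beside 22.3% over all genes, and whether the groups differ in sex was not tested. Genotype was the main axis of variation: the first principal component held 60.9% of the variance and placed the WT libraries at 14.7 to 21.1 and those labelled KO at -19.5 to -17.0. The split between rises and falls depended on the scaling, since 1239 rose and 1063 fell after median-of-ratios scaling (53.8% of the calls higher, against 42.2% in FPKM). Depth, estimated roughly from the step between low values, was 11400000 to 13600000 fragments per library. Leaving out any 1 library gave 1358 to 2297 calls, fewest without WT replicate 1 (1358), KO replicate 1 (1389) or WT replicate 2 (1416).

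**Figure D1:**
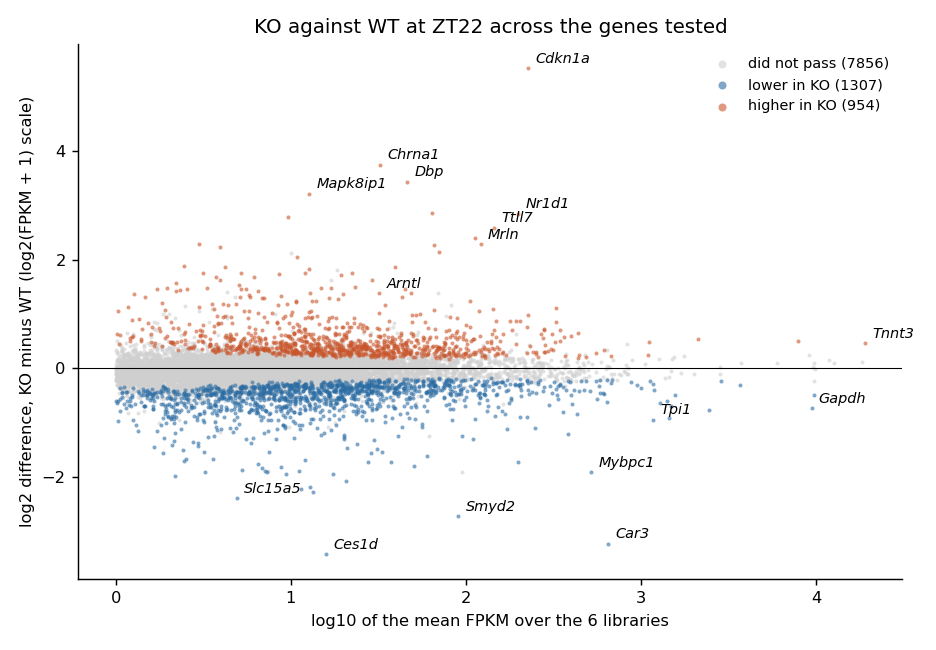
Each point is 1 of the 10117 genes tested, placed by the log10 of its mean FPKM over the 6 libraries and by its log2 difference, KO minus WT. Orange points rose (954), blue points fell (1307) and grey points did not pass. The outlying genes are Cdkn1a (5.53), Chrna1 (3.75) and Dbp (3.44) above and Ces1d (-3.43) and Car3 (-3.23) below.

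The genes of the receptors did not lose RNA in the libraries labelled KO. Nr1d1 was at 52.7, 54 and 37.99 FPKM in the WT libraries and 354, 369 and 328 FPKM in those labelled KO, a difference of 2.85 ± 0.13 (adjusted p = 1.26e-05), and every library labelled KO lay above every WT library. Nr1d2 was at 29.7, 28.4 and 29.2 FPKM in the WT libraries and 38.9, 37.6 and 36.3 FPKM in those labelled KO, again with no overlap, and rose by 0.36 ± 0.06 (adjusted p = 0.00491). Gene-level FPKM does not show which exons were read, and a deletion of some exons can leave a transcript that is still counted, so these values do not check the genotype. On chromosome 11 Nr1d1 is read from the minus strand (98767932 to 98775333, GRCm38, GENCODE M21) and its end overlaps Thra on the plus strand (98740638 to 98769006), the gene of thyroid hormone receptor alpha. Thra was at 37.6, 32.2 and 34.6 FPKM in the WT libraries and 18.4, 22.6 and 22.6 FPKM in those labelled KO and fell (-0.70 ± 0.10, adjusted p = 0.00223). The strand setting of the read counting is not known from the sources used, so both values are uncertain where the genes overlap. Of the activating receptors that use RORE elements, Rora did not pass (0.06 ± 0.09, adjusted p = 0.653), and Rorb stayed under 0.1 FPKM in every library.

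The receptors and BMAL1 act through short elements in clock genes. Matches in the windows of 250 bases before to 50 after each start (RefSeq, GRCm38.p6) are shown here as a description of the sequence. Elements outside these windows were not searched, and whether the matches are bound in this muscle was not tested. The words searched on both strands were A, any 2 bases, T, any base and GGTCA for the RORE, CACGTG for the E-box and TTANGTAA for the D-box bound by DBP, TEF, HLF and NFIL3. Of the 19 clock genes, 16 had a window; the RORE word was in 1, the E-box word in 5 and the D-box word in 1. Over all 32851 windows the words occurred in 2.46%, 7.15% and 2.32%, and over the 10367 windows of tested genes in 1.99%, 10.3% and 1.5%. These are shares of windows, not of genes, and some clock genes had more than 1 window. Capitals mark the match, and each line reads 5′ to 3′ on the gene's strand.
Arntl RORE, first base 27 after the start, chr7:113207530-113207555 (+): aaggcagaAAGTAGGTCAgggacgga
Cry1 E-box, chr10:85185101-85185122 (-): ccggtggtCACGTGgggtgcat
Per1 E-box, chr11:69098775-69098796 (+): cccaagtcCACGTGcagggatg
Tef E-box, chr15:81802538-81802559 (+): tgtggctcCACGTGctgcagct
Bhlhe41 E-box, chr6:145865560-145865581 (-): acgttccgCACGTGagctgggt
Per3 D-box, chr4:151044855-151044878 (-): cccgcgcgTTATGTAAggtactcg
Ciart upstream stretch with 3 E-boxes, chr3:95882255-95882356 (-): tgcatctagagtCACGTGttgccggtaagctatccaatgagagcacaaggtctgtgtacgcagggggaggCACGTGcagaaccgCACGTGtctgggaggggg

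A match is a description of the letters only. None of the 3 words was in the windows of the 12 genes with the largest rises or the 11 with the largest falls that had one. The RORE word stood in 1.51% of the windows of genes that rose, 2.63% of those that fell and 1.94% of those that did not pass.

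The activators of the clock rose in all 3 tested members, of which Npas2 reached the level filter only through the libraries labelled KO. Arntl, the gene with the RORE match printed above, was at 17.6, 19.2 and 15.3 FPKM in the WT libraries and 46.8, 44.1 and 49.1 FPKM in those labelled KO, a difference of 1.38 ± 0.09 (adjusted p = 8.02e-05), and the groups did not overlap. Clock, its partner, rose by 1.24 ± 0.09 from 8.26, 8.01 and 7.37 FPKM to 21.8, 19.7 and 18.5 FPKM. Npas2, which can replace CLOCK, was under 1 FPKM in each WT library (0.81, 0.84 and 0.56) and at 7.38, 7.66 and 6.53 FPKM in those labelled KO (2.24 ± 0.11, adjusted p = 2.2e-05). Arntl2 was below the level filter and not tested. It was at 0.8, 1.05 and 0.88 FPKM in the WT libraries and lower in those labelled KO, at 0.35, 0.47 and 0.73 FPKM, with no overlap.

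Among the repressors, the Cryptochromes and Ciart rose and the Period genes did not pass. Cry1 was at 8.22, 9.22 and 6.7 FPKM in the WT libraries and 17.2, 19.2 and 15.6 FPKM in those labelled KO (1.03 ± 0.12, adjusted p = 0.00113). Cry2 went from 9.31, 11.3 and 10.7 FPKM to 27.04, 24.5 and 28.8 FPKM (1.28 ± 0.09, adjusted p = 0.000129). Ciart (CHRONO), which blocks BMAL1, went from 1.25, 1.76 and 0.85 FPKM to 6.08, 5.1 and 4.9 FPKM (1.49 ± 0.16, adjusted p = 0.000709). In these 3 genes no library labelled KO reached down to the WT range. Per1, Per2 and Per3 differed by 0.34 ± 0.32, 0.22 ± 0.12 and 0.14 ± 0.12, with adjusted p from 0.227 to 0.467, and their groups overlapped. Per2, for one, was at 1.62, 1.88 and 1.42 FPKM in the WT libraries and 2.41, 1.85 and 1.96 FPKM in those labelled KO. Bhlhe40 and Bhlhe41, the DEC repressors, differed by -0.08 ± 0.13 and 0.07 ± 0.11 (adjusted p = 0.678 and 0.706). An E-box match was therefore present both in genes that rose (Cry1, Ciart, Tef) and in genes that did not pass (Per1, Bhlhe41).

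All 4 output factors that share the D-box rose. Dbp, an activator, was at 7.57, 6.72 and 6.62 FPKM in the WT libraries and 89.3, 80.2 and 86.5 FPKM in those labelled KO, 12.2-fold on the ratio of mean FPKM (3.44 ± 0.08, adjusted p = 4.53e-07), the smallest p of the genes named here. Hlf went from 4.03, 2.94 and 2.55 FPKM to 8.38, 7.79 and 6.8 FPKM (1.06 ± 0.14, adjusted p = 0.00178). Tef, the most abundant of them, went from 74.97, 74.1 and 69.7 FPKM to 118, 123 and 141 FPKM (0.79 ± 0.08, adjusted p = 0.000542). Nfil3, which represses through the same element, was at 22.2, 37.5 and 13.2 FPKM in the WT libraries and 56.8, 87.5 and 50.1 FPKM in those labelled KO (1.46 ± 0.34, adjusted p = 0.0196). In both genotypes Nfil3 was highest in replicate 2 and lowest in replicate 3, and it did not pass without WT replicate 1 or without KO replicate 2 (adjusted p 0.0585 to 0.0623). Of 7 tested kinases and ubiquitin ligases of the clock, 2 rose and 0 fell (1 rose without WT replicate 1 or 2 or KO replicate 1 or 3). Csnk1e, a kinase of the Period proteins, rose by 0.53 ± 0.11 (adjusted p = 0.0108), while Csnk1d did not pass (-0.19 ± 0.08). Of the corepressor complex, Ncor1 did not pass (-0.02 ± 0.06). Hdac3, its deacetylase, was at 33.7, 33.8 and 31.3 FPKM in the WT libraries and 20.4, 20.6 and 37.95 FPKM in those labelled KO and did not pass (adjusted p = 0.24); replicate 3 labelled KO lay above all WT libraries and the other two below them.

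**Figure D2:**
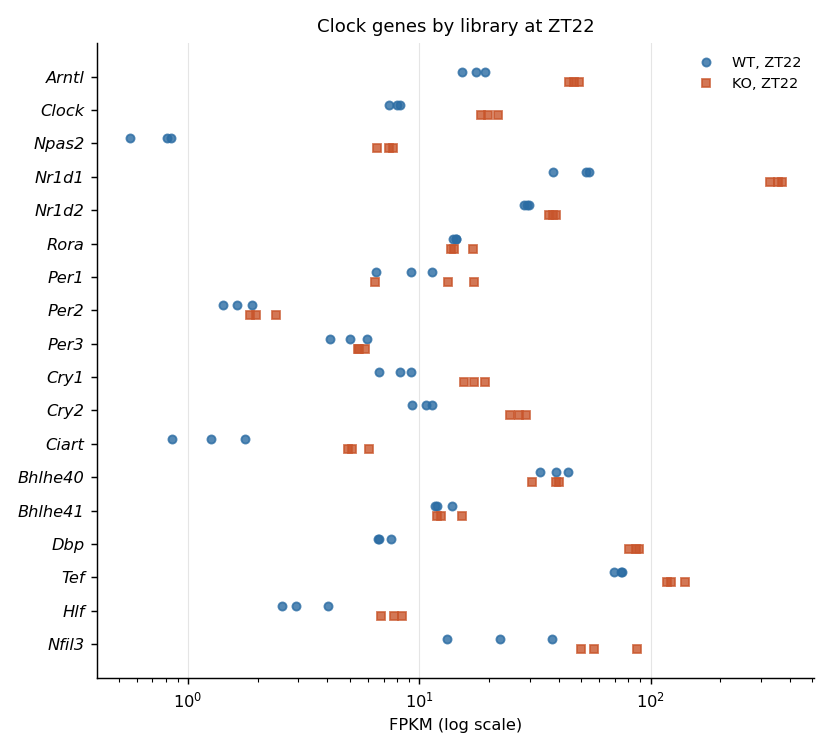
FPKM on a log axis of clock genes, with blue circles for the 3 WT libraries and orange squares for the 3 labelled KO. Arntl, Clock, Npas2, Nr1d1, Nr1d2, Cry1, Cry2, Ciart, Dbp, Tef, Hlf and Nfil3 are shifted to the right with no overlap, and Per1, Per2, Per3, Rora, Bhlhe40 and Bhlhe41 overlap.

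The largest rise of all was in Cdkn1a, which encodes the cell cycle inhibitor p21. It was at 7.15, 13.4 and 6.5 FPKM in the WT libraries and 408, 416 and 509 FPKM in those labelled KO, 49.4-fold on the ratio of mean FPKM (5.53 ± 0.22, adjusted p = 9.93e-06). The lowest library labelled KO lay far above the highest WT library. Of the 5 tested CDK inhibitors, Cdkn1c (p57) also rose, from 7.89, 9.77 and 4.93 FPKM to 21.2, 22 and 23.6 FPKM (1.49 ± 0.19, adjusted p = 0.00157). Cdkn2d fell, from 8.27, 7.4 and 7.41 FPKM to 4.07, 3.68 and 4.75 FPKM (-0.75 ± 0.10, adjusted p = 0.00196), and Cdkn1b and Cdkn2c did not pass. Of 16 tested p53 targets, 4 rose and 2 fell (1 fell without WT replicate 1 or 2 or KO replicate 2), with a median of 0.07 against -0.04 over all genes. The 4 were Cdkn1a, Eda2r (0.54 ± 0.14), Trp53inp1 (0.41 ± 0.11) and Zmat3 (0.34 ± 0.10), and of them only Cdkn1a held in all 16 alternatives described with the processing. Eda2r did not pass without WT replicate 1 or 2 or without KO replicate 1 or 3 (adjusted p 0.0537 to 0.0901). Trp53inp1 and Zmat3 each failed to pass with any 1 library left out, at adjusted p 0.0502 to 0.101 and 0.0545 to 0.139. The widely used p53 targets Ccng1 and Phlda3 did not pass (-0.13 ± 0.07 and -0.07 ± 0.09), and Tigar, a p53 target that restrains glycolysis, fell (-0.45 ± 0.07, adjusted p = 0.00447). Of 8 tested cell cycle genes only Ccnd3 changed (2 fell without WT replicate 3, 1 rose without WT replicate 3), a fall (-0.78 ± 0.14, adjusted p = 0.00622); Mki67 and Top2a were at 0.22 FPKM or less in every library.

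Chrna1, the alpha subunit of the acetylcholine receptor at the neuromuscular junction, had the second largest rise. It stood at 3.58, 4.13 and 3 FPKM in the WT libraries and 58.4, 52.9 and 71.1 FPKM in those labelled KO, 17.0-fold on the ratio of means (3.75 ± 0.13, adjusted p = 5.57e-06). Of the other receptor subunits, Chrnb1 rose from 18.4, 21.4 and 19.4 FPKM to 24.6, 25.5 and 26.2 FPKM (0.35 ± 0.07, adjusted p = 0.0123), and Chrne, the adult subunit, was at 5.47, 6.29 and 7.36 FPKM in the WT libraries and 3.53, 4.16 and 5.51 FPKM in those labelled KO and did not pass (-0.46 ± 0.15, adjusted p = 0.0647). Chrnd, the delta subunit, was under the filter and not tested, at 0.92, 1.38 and 1.09 FPKM in the WT libraries and 0.57, 0.55 and 0.52 FPKM in those labelled KO, which did not overlap. Musk, the receptor kinase that clusters acetylcholine receptors, went from 2.95, 3.42 and 3.56 FPKM to 13.6, 9.16 and 18.7 FPKM (1.73 ± 0.21, adjusted p = 0.00127). Ache, which breaks acetylcholine down, went the other way, from 19.1, 15.1 and 13.5 FPKM to 6.64, 6.89 and 7.68 FPKM (-1.05 ± 0.12, adjusted p = 0.00112). Prima1, which anchors the esterase to membranes, fell from 13.5, 11.8 and 10.7 FPKM to 2.17, 1.91 and 3.46 FPKM (-1.91 ± 0.16, adjusted p = 0.000321). Over the 12 tested genes of the receptor and synapse, 5 rose and 2 fell (3 rose without WT replicate 2 or KO replicate 1 or 3, 1 fell without WT replicate 1 or 2 or KO replicate 1 or 2), with Chrna1, Musk and Ache holding in all 16 alternatives. Lrp4, the agrin receptor, rose (0.51 ± 0.13) and Agrn fell (-0.39 ± 0.10), but Lrp4 did not pass without WT replicate 2 or 3 or without KO replicate 1, 2 or 3 (adjusted p 0.0511 to 0.0818), and Agrn did not pass without WT replicate 1 or 2 or without KO replicate 1, 2 or 3 (adjusted p 0.0636 to 0.0953). Etv5, a synaptic transcription factor, rose (0.45 ± 0.11) and did not pass without WT replicate 1 or 2 or without KO replicate 1 or 3 (adjusted p 0.0592 to 0.0674). Rapsn, Dok7, Colq and Utrn did not pass.

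Of 12 tested genes that rise after denervation, 3 rose and 1 fell (0 fell without WT replicate 1, 2 or 3 or KO replicate 2). Besides Chrna1 the riser that held without any single library was Mt2, a metallothionein with a close copy that can share its reads, at 2.55, 2.95 and 3.47 FPKM in the WT libraries and 11.5, 6.81 and 11.6 FPKM in those labelled KO (1.43 ± 0.19, adjusted p = 0.00176). The atrophy ligases Fbxo32 (atrogin) and Trim63 (MuRF) did not pass: Fbxo32 was at 46.9, 48.3 and 50.1 FPKM in the WT libraries and 54.99, 95.1 and 166 FPKM in those labelled KO (0.96 ± 0.32, adjusted p = 0.0668), with replicate 3 labelled KO highest, and Trim63 was at 72.2, 64.8 and 84.96 FPKM in the WT libraries and 66.97, 92.8 and 154 FPKM in those labelled KO (0.42 ± 0.26, adjusted p = 0.282). Ncam1 and Runx1 were under the filter. Among 10 tested myogenic regulators 2 rose and 0 fell. Myod1, the determination factor, went from 22.8, 30.9 and 25.5 FPKM to 71.5, 60.3 and 80.7 FPKM (1.39 ± 0.13, adjusted p = 0.000491), with no overlap. Myf6 rose by 0.45 ± 0.13 with overlapping groups and did not pass without WT replicate 1 or 2 or without KO replicate 1 or 2 (adjusted p 0.114 to 0.14). Mef2c and Mef2d, both more abundant than Myod1, did not pass (-0.11 ± 0.07 and 0.23 ± 0.07).

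The remaining large rises were in genes of varied roles. Mapk8ip1, a scaffold of the JNK kinases, went from 2.04, 1.48 and 1.42 FPKM to 26.2, 25.5 and 19.5 FPKM (3.22 ± 0.14, adjusted p = 1e-05). Dupd1, a dual-specificity phosphatase of muscle, went from 13.9, 13.4 and 16.9 FPKM to 119, 99.8 and 121 FPKM (2.86 ± 0.11, adjusted p = 7.87e-06). The kinases themselves moved less: of 19 tested genes of JNK and p38 signalling 4 rose and 2 fell (2 rose without WT replicate 1 or 2, 1 fell without WT replicate 1 or 2 or KO replicate 2 and 4 without WT replicate 3), Map2k7 fell (-0.40 ± 0.08, adjusted p = 0.0112), and Mapk14 and Mapk12 did not pass. Ttll7, a tubulin polyglutamylase, was among the most abundant of the risers, at 41.9, 37.7 and 40.7 FPKM in the WT libraries and 250.2, 195 and 304 FPKM in those labelled KO (2.59 ± 0.14). Pla2g7, the phospholipase that inactivates platelet-activating factor, went from 38.1, 29.3 and 38.4 FPKM to 178, 178 and 219 FPKM (2.41 ± 0.12). Car14, a membrane carbonic anhydrase of muscle, went from 18.2, 22.97 and 25.1 FPKM to 107, 108 and 115 FPKM (2.28 ± 0.11). Tmem37, a calcium channel gamma-like subunit, and Sctr, the secretin receptor, rose by 2.15 ± 0.13 and 2.06 ± 0.13. Prss55, a serine protease, was at 0, 0.86 and 0.27 FPKM in the WT libraries and at 5.38, 6.39 and 4.93 FPKM in those labelled KO (2.30 ± 0.22). Within each of these genes the lowest value labelled KO exceeded the highest WT value.

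Among the largest falls were an esterase, a carbonic anhydrase and a methyltransferase. Ces1d, a carboxylesterase that hydrolyses triglyceride, was at 32.7, 37.7 and 19.4 FPKM in the WT libraries and 1.57, 1.88 and 1.88 FPKM in those labelled KO (-3.43 ± 0.21, adjusted p = 5.98e-05). Car3, a cytosolic carbonic anhydrase, was at 709.8, 1081 and 1679.6 FPKM in the WT libraries and 119.6, 218 and 57.9 FPKM in those labelled KO (-3.23 ± 0.46, adjusted p = 0.00243); the groups did not overlap although each ranged widely. Car2 fell as well, from 12.4, 12.8 and 9.92 FPKM to 1.92, 2.99 and 2.4 FPKM (-1.89 ± 0.14), so that of 7 tested carbonic anhydrases 1 rose and 2 fell. Smyd2, a lysine methyltransferase abundant in muscle, went from 166, 151 and 157 FPKM to 23.4, 19 and 27.1 FPKM (-2.73 ± 0.12, adjusted p = 1e-05). Its relatives differed less: Smyd1 did not pass (0.09 ± 0.06), and Smyd5 fell (-0.37 ± 0.10) but did not pass without WT replicate 1 or 2 or without KO replicate 2 or 3 (adjusted p 0.0693 to 0.0911). Mybpc1, the slow myosin-binding protein C, fell from 779, 878 and 801 FPKM to 245, 238 and 176 FPKM (-1.91 ± 0.12, adjusted p = 7.39e-05). Slc15a5, a solute carrier, and Rhou, a small GTPase, fell (-2.39 ± 0.12 and -2.23 ± 0.12). Cntfr, the receptor of ciliary neurotrophic factor, and Frzb, a secreted antagonist of Wnt signalling, fell (-1.95 ± 0.12 and -1.91 ± 0.14). Fam57b and Zfp385b fell (-2.07 ± 0.11 and -1.99 ± 0.17). Every gene in this paragraph reported as fallen had groups that did not overlap.

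**Figure D3:**
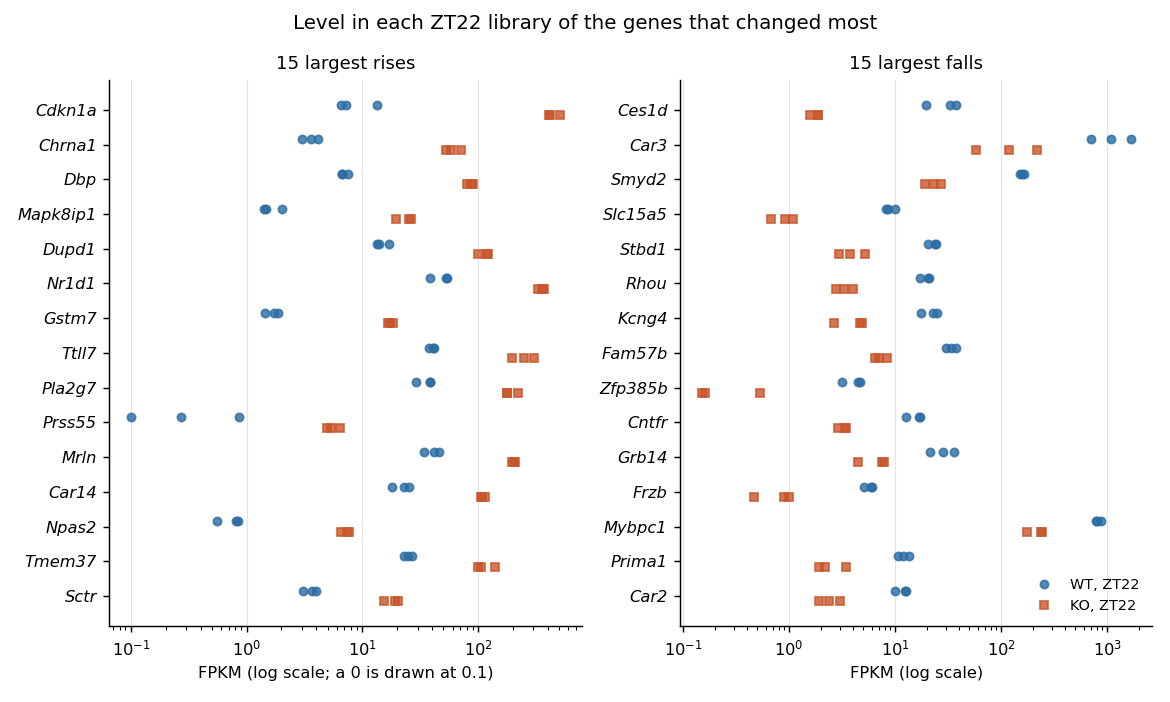
FPKM in each library, on log axes, of the 15 genes with the largest rises (left) and the 15 with the largest falls (right) among genes that passed with separated groups. Blue circles are WT libraries and orange squares those labelled KO; the 1 value listed at 0 (Prss55 in WT replicate 1) is drawn at 0.1. No pair of groups overlaps, and Car3 has the widest spread within groups.

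Of 19 tested genes of the glycolysis list, 10 fell and 0 rose (2 rose without KO replicate 3), with a median of -0.35 against -0.04 over all genes. The list, and the falls counted in it, include Gpd1 and Fbp2, which are not enzymes of glycolysis itself. With any other setting or any 1 library left out, 9 to 11 fell. Gpd1, the glycerol phosphate dehydrogenase that links glycolysis to lipid and to the shuttle of electrons into mitochondria, went from 348, 318 and 348 FPKM to 153, 157 and 163 FPKM (-1.09 ± 0.06, adjusted p = 3.7e-05). Tpi1, triosephosphate isomerase, went from 1571, 1510.3 and 1555 FPKM to 813, 802 and 781 FPKM (-0.95 ± 0.05, adjusted p = 3.75e-05). Gapdh, among the most abundant transcripts of the muscle, was at 11881, 11521 and 11733 FPKM in the WT libraries and 6888, 7551 and 6826 FPKM in those labelled KO (-0.73 ± 0.07, adjusted p = 0.000491). In these 3 genes the WT libraries lay close together and far above those labelled KO. Eno3, the muscle enolase, fell (-0.77 ± 0.08, adjusted p = 0.000709), Ldha, which makes lactate, (-0.64 ± 0.07, adjusted p = 0.000631) and Pgk1 (-0.42 ± 0.05, adjusted p = 0.0011). Aldoa and Pkm did not pass (-0.24 ± 0.08 and -0.05 ± 0.06). Fbp2, the muscle fructose bisphosphatase, chosen after its values were seen, had the largest difference of the list, from 46.5, 50.7 and 41.4 FPKM to 15.02, 21.6 and 11.99 FPKM (-1.49 ± 0.18, adjusted p = 0.00127). Summed over the whole list, transcripts came to 33216 to 36275 FPKM in the WT libraries and 24194 to 24883 FPKM in those labelled KO.

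Glycogen metabolism showed 1 rise (2 rose without WT replicate 3 or KO replicate 3) and 6 falls among 19 tested genes, with a median of -0.06. Stbd1, which binds glycogen and tethers it to autophagy, fell from 20.3, 24.2 and 23.7 FPKM to 5.17, 2.97 and 3.75 FPKM (-2.28 ± 0.16, adjusted p = 0.000101). Pgm2, a phosphoglucomutase, fell (-0.66 ± 0.07, adjusted p = 0.000761) and Phka1, the regulatory subunit of muscle phosphorylase kinase, (-0.47 ± 0.08, adjusted p = 0.00582). Gyg, the glycogenin that primes new glycogen, was the 1 that rose, from 240.0, 242 and 243 FPKM to 317, 334 and 323 FPKM (0.43 ± 0.05, adjusted p = 0.00118). Those 4 calls held in all 16 alternatives. Pygm, the phosphorylase, fell (-0.24 ± 0.06), a call that did not hold without WT replicate 1 or 3 or without KO replicate 1 or 2 (adjusted p 0.0599 to 0.104). After median-of-ratios scaling or removal of the length trend 3 genes of the list fell rather than 6.

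In glucose uptake and insulin signalling, 4 of 21 genes rose and 5 fell (2 rose without WT replicate 1 or KO replicate 1). Slc2a4 (GLUT4), the insulin-responsive transporter, was at 217, 222 and 246 FPKM in the WT libraries and 175, 178 and 183 FPKM in those labelled KO (-0.35 ± 0.06, adjusted p = 0.00731), again with no overlap. Tbc1d1, a Rab GTPase activator that gates the transporter's vesicles, fell from 43.7, 40.9 and 65.4 FPKM to 19.8, 17.1 and 12.1 FPKM (-1.55 ± 0.21, adjusted p = 0.00187). Grb14, an adaptor that inhibits the insulin receptor, fell from 28.01, 35.6 and 21.1 FPKM to 7.48, 7.86 and 4.51 FPKM (-1.94 ± 0.22, adjusted p = 0.001). The phosphoinositide kinase subunits Pik3ca and Pik3r1 rose (0.61 ± 0.12 and 0.92 ± 0.12). Insr rose (0.34 ± 0.07) and did not pass without WT replicate 1 or without KO replicate 1 (adjusted p 0.0523 to 0.0547). At the entry of pyruvate into mitochondria, 4 of 14 genes fell and 1 rose (0 rose without WT replicate 1 or KO replicate 1 and 2 without WT replicate 3). Mpc2, a subunit of the pyruvate carrier, went from 216, 216 and 212 FPKM to 124, 124 and 112 FPKM (-0.84 ± 0.06, adjusted p = 0.000118), while its partner Mpc1 rose by 0.25 ± 0.06 and did not pass without WT replicate 1 or without KO replicate 1 (adjusted p 0.0646 to 0.0707). Pdp1, the phosphatase that activates pyruvate dehydrogenase, fell from 22.8, 21.6 and 24.1 FPKM to 14.9, 15.3 and 14.9 FPKM (-0.57 ± 0.07, adjusted p = 0.00116). The subunits Pdha1 and Dlat fell (-0.29 ± 0.06 and -0.42 ± 0.09), and neither passed without WT replicate 2 (adjusted p = 0.055 and 0.0612). Pdk4, the inhibitory kinase, did not pass: it was at 72.2, 205 and 184 FPKM in the WT libraries and 348, 166 and 179.6 FPKM in those labelled KO, and the groups overlapped.

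Transcripts of the respiratory chain fell in many members, beside the 12.9% of all genes that fell. Of 36 tested subunits and factors of complex I, 19 fell and 0 rose (median -0.24), and of 37 of complexes III to V, 19 fell and 0 rose (3 rose without KO replicate 3; median -0.21). The differences were small and the replicates tight. Ndufs7, of the electron-transferring arm of complex I, went from 371, 354 and 373 FPKM to 230.0, 239.6 and 217 FPKM (-0.67 ± 0.06, adjusted p = 0.000326). Ndufs8 and Ndufb7 fell (-0.54 ± 0.07 and -0.51 ± 0.06). Cyc1, the cytochrome subunit of complex III, went from 379, 403 and 381 FPKM to 278, 287 and 257 FPKM (-0.50 ± 0.06, adjusted p = 0.00127). Cox4i1 of complex IV fell (-0.32 ± 0.06, adjusted p = 0.00703), and Atp5d and Atp5g1 of the ATP synthase (-0.50 ± 0.06 and -0.48 ± 0.05). Atp5b and Cox6a2, the most abundant of these lists' members that did not pass, differed by -0.09 ± 0.06 and 0.22 ± 0.08. Atp5e, chosen after its values were seen, was uneven, at 244, 412 and 232 FPKM in the WT libraries and 60.7, 54.8 and 190.4 FPKM in those labelled KO (-1.72 ± 0.44, adjusted p = 0.0276). It did not pass without WT replicate 1 or 2 or without KO replicate 1 or 2 (adjusted p 0.0649 to 0.0925), with robust empirical Bayes (adjusted p = 0.0965) or in the fit of all 12 libraries (adjusted p = 0.301). How many fell depended on the setting. For complex I, 12 fell without WT replicate 1 and 12 after median-of-ratios scaling, with 11 of the 19 falling in every alternative. For complexes III to V, 8 fell without WT replicate 1, 9 without WT replicate 2, 10 without KO replicate 1, 12 without KO replicate 2, 10 without KO replicate 3 and 9 after median-of-ratios scaling, with 8 of the 19 falling in every alternative. None rose after that scaling, which put the median of all genes at 0.01 and those of the lists at -0.19 and -0.16.

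The tricarboxylic acid cycle had 8 falls and 2 rises among 18 genes (median -0.21). The 2 that rose were subunits of succinyl-CoA synthetase, Suclg2 (0.41 ± 0.07, adjusted p = 0.00447) and Sucla2 (0.32 ± 0.06, adjusted p = 0.0115), while their shared partner Suclg1 fell from 226, 212 and 203 FPKM to 152, 146 and 144 FPKM (-0.54 ± 0.06, adjusted p = 0.000861). Sdhd of complex II and Idh3a of the NAD-dependent isocitrate dehydrogenase fell (-0.48 ± 0.06 and -0.38 ± 0.06). Mdh2, the abundant malate dehydrogenase, did not pass (-0.13 ± 0.07). Of 74 mitochondrial ribosomal proteins, 27 fell and 1 rose (0 rose without WT replicate 1, 2 or 3 or KO replicate 1 or 2 and 2 without KO replicate 3; median -0.16); Mrpl54 went from 92.1, 87.8 and 86.5 FPKM to 63.5, 58.2 and 61.1 FPKM (-0.54 ± 0.06, adjusted p = 0.000866), and Mrpl12 fell (-0.49 ± 0.05). After median-of-ratios scaling 17 fell and 3 rose. Among 22 regulators of mitochondrial biogenesis and dynamics 6 fell and 2 rose (1 rose without WT replicate 1 or 2 or KO replicate 1). Esrra, the receptor that drives respiratory genes, fell from 40.1, 44.7 and 38.95 FPKM to 28.6, 27.9 and 27.7 FPKM (-0.54 ± 0.07, adjusted p = 0.0016) and was the 1 fall that held in every alternative. Without WT replicate 2 it was the only member of that list to fall, and without KO replicate 1 there were 2; after median-of-ratios scaling 1 fell and 3 rose. Of 21 genes of AMPK, NAD and sirtuins 5 fell and 0 rose (2 rose without KO replicate 3, and 1 after median-of-ratios scaling). Nmnat1 and Nampt, both of NAD salvage, fell (-0.73 ± 0.08, adjusted p = 0.000745, and -0.45 ± 0.06, adjusted p = 0.00252), and the mitochondrial deacylase Sirt3 (-0.58 ± 0.11, adjusted p = 0.0076).

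**Figure D4:**
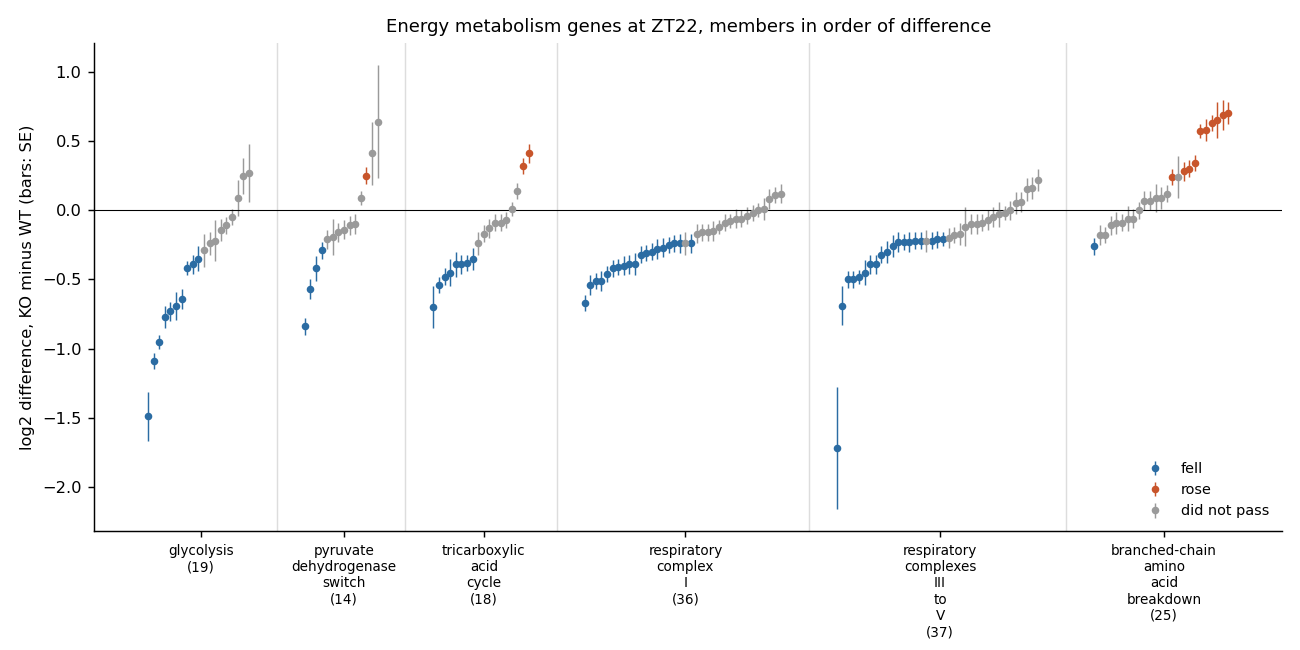
Log2 difference, KO minus WT, with its standard error, of every tested gene of 6 lists of energy metabolism, each list in order of difference and with its number of genes in brackets. Blue points fell, orange rose and grey did not pass. No gene of glycolysis (19) or of the respiratory complexes (36 and 37) rose, while 10 of the 25 for breakdown of branched-chain amino acids did.

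Breakdown of branched-chain amino acids went the other way, with 10 of 25 tested genes higher and 1 lower. Ivd, isovaleryl-CoA dehydrogenase of leucine breakdown, went from 61.7, 60.9 and 58.8 FPKM to 90.3, 95.98 and 111 FPKM (0.70 ± 0.08, adjusted p = 0.00106). Acadsb of isoleucine breakdown went from 37.5, 38.2 and 40.2 FPKM to 60.1, 60.2 and 60.7 FPKM (0.63 ± 0.06, adjusted p = 0.000381), and Aldh6a1 of valine breakdown from 63.5, 65.9 and 66 FPKM to 97.1, 98.7 and 95.5 FPKM (0.57 ± 0.05, adjusted p = 0.000441). Bcat2, the mitochondrial transaminase of the pathway, rose by 0.58 ± 0.08 (adjusted p = 0.00251). Klf15, a transcription factor that induces the pathway, was at 17.4, 14.3 and 16.7 FPKM in the WT libraries and 22.6, 28.2 and 29.4 FPKM in those labelled KO (0.69 ± 0.11, adjusted p = 0.00469). In these 5 genes no values overlapped. The abundant Dld and Hibadh did not pass (-0.11 ± 0.07 and 0.12 ± 0.06), and the median of the list was 0.09. From 8 to 10 members rose in each fit that left out 1 library, while 0 fell without WT replicate 1 or 2 or KO replicate 2.

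Of 34 genes of fatty acid uptake and oxidation 5 rose and 5 fell, beside 9.43% and 12.9% over all genes. Acsl1 and Acsl6, which activate long-chain fatty acids, rose by 0.76 ± 0.15 (adjusted p = 0.0115) and 0.76 ± 0.06 (adjusted p = 0.000277). Hadhb of the trifunctional protein rose from 195, 222 and 210.3 FPKM to 345, 354 and 275 FPKM (0.63 ± 0.10, adjusted p = 0.0042). Acads, for short chains, and Acaa2, a thiolase, fell (-0.70 ± 0.07, adjusted p = 0.000611, and -0.60 ± 0.10, adjusted p = 0.00412). Rxrg, a retinoid X receptor of muscle, fell (-0.70 ± 0.11, adjusted p = 0.00345). Of 18 lipid droplet genes 4 rose and 4 fell (2 rose without WT replicate 1 or 2 or KO replicate 1 or 3). Pnpla2 (ATGL), the first lipase of triglyceride breakdown, went from 140.3, 157 and 129.9 FPKM to 258, 255 and 274 FPKM (0.88 ± 0.08, adjusted p = 0.000326), and Plin5, the droplet coat of oxidative tissue, from 8.03, 10.5 and 8.94 FPKM to 22.6, 20.1 and 14.2 FPKM (0.96 ± 0.16, adjusted p = 0.00559). Plin2, the general droplet coat, fell from 11.6, 13.4 and 12.4 FPKM to 5.48, 4.8 and 6.31 FPKM (-1.05 ± 0.10, adjusted p = 0.000574). These values are the higher of 2 differing entries deposited for Plin2, and the other entry was not tested. Abhd5, the activator of ATGL, fell (-0.39 ± 0.07, adjusted p = 0.00787). G0s2, the inhibitor of ATGL, was at 42.6, 111 and 108 FPKM in the WT libraries and 53.3, 21.4 and 32.5 FPKM in those labelled KO and did not pass (adjusted p = 0.0647). In sterol and fatty acid synthesis, 1 of 23 rose and 3 fell: Me1, the malic enzyme that makes NADPH, rose by 0.70 ± 0.08 (adjusted p = 0.000861), and Dhcr7 of cholesterol synthesis fell (-0.84 ± 0.10, adjusted p = 0.00106).

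In choline and phospholipid turnover 6 of 19 genes rose and 2 fell (0 fell without WT replicate 1 and 1 without WT replicate 2 or KO replicate 1, 2 or 3), with a median of -0.01. Chpt1 and Cept1, which make phosphatidylcholine, rose from 63.8, 66.3 and 72.7 FPKM to 114, 105 and 109 FPKM (0.69 ± 0.07, adjusted p = 0.000572) and by 0.56 ± 0.08 (adjusted p = 0.00187). Gpcpd1, which releases choline from glycerophosphocholine, rose by 0.48 ± 0.10 (adjusted p = 0.0129). Pcyt1a, the regulated enzyme of the pathway, fell (-0.29 ± 0.06) and did not pass without WT replicate 1 or without KO replicate 1 (adjusted p 0.0555 to 0.0564). Polyamine genes changed in 4 of 12 cases (0 rose without WT replicate 1 or 2 or KO replicate 1 or 3, 2 without WT replicate 3 and 3 without KO replicate 2): Amd1 (S-adenosylmethionine decarboxylase, a gene with close copies that can share its reads) and Smox (spermine oxidase) fell (-0.90 ± 0.17, adjusted p = 0.00798, and -1.25 ± 0.19, adjusted p = 0.00314), and Odc1 was at 35.9, 30.6 and 87.6 FPKM in the WT libraries and 123, 57.3 and 160.4 FPKM in those labelled KO and did not pass (adjusted p = 0.102). Of 13 amino acid transporters 2 fell and 0 rose (1 rose without KO replicate 2), Slc7a2 (-0.90 ± 0.15, adjusted p = 0.00441) and Slc15a5 as given above.

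Calcium handling genes rose more often than they fell, 8 against 2 of 24 tested. Mrln encodes myoregulin, a micropeptide that inhibits the SERCA calcium pump; it was at 45.8, 41.3 and 34.4 FPKM in the WT libraries and 195, 202 and 206 FPKM in those labelled KO (2.29 ± 0.10, adjusted p = 1e-05). The voltage sensor of the T-tubule rose in its pore subunit Cacna1s, from 258, 244 and 224 FPKM to 374, 361 and 397 FPKM (0.64 ± 0.07, adjusted p = 0.000771), and in Cacng1 (0.87 ± 0.10, adjusted p = 0.001). Trdn (triadin) and Asph (junctin and its relatives), both of the release complex, rose by 0.66 ± 0.06 (adjusted p = 0.000331) and 0.60 ± 0.07 (adjusted p = 0.000866). Jph2, which holds the junction of T-tubule and reticulum together, fell (-0.50 ± 0.08, adjusted p = 0.00372). Atp2a1, the fast SERCA pump itself, did not pass, at 10277, 9790.0 and 9636 FPKM in the WT libraries and 9232, 9979 and 10133 FPKM in those labelled KO, nor did Casq1 (-0.15 ± 0.08). Each of the named changes held in all 16 alternatives.

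Of 18 ion channels and pumps of the surface membrane 5 rose and 6 fell (3 rose without KO replicate 1 or 2). Atp1b2, a beta subunit of the sodium pump, rose from 151, 175 and 129 FPKM to 289, 324 and 285 FPKM (0.98 ± 0.11, adjusted p = 0.000851). Kcng4, a modifier of potassium channels, fell from 17.6, 24.8 and 22.9 FPKM to 4.85, 4.71 and 2.64 FPKM (-2.19 ± 0.20, adjusted p = 0.00039), and Scn4a, the sodium channel of muscle, did not pass (0.00 ± 0.08). Kcng4 was the only one of the 6 falls that held in every alternative; without WT replicate 1 there were 2 falls, and without KO replicate 1 or 3 there were 3. In the dystrophin complex and costamere 4 of 27 rose and 6 fell (7 and 4 after median-of-ratios scaling). Nos1, the neuronal nitric oxide synthase anchored there, fell from 30.3, 30.2 and 38.2 FPKM to 20.7, 19.2 and 13.4 FPKM (-0.87 ± 0.16, adjusted p = 0.0076). Sntb1, a syntrophin of the complex, fell (-1.45 ± 0.27, adjusted p = 0.00801), while the sarcoglycan Sgcb and sarcospan Sspn rose by 0.42 ± 0.06 and 0.37 ± 0.06.

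Of 15 fast-fibre sarcomere genes 2 rose and 3 fell, beside 22.3% called over all genes. Myh1, the IIx myosin heavy chain, fell from 1903, 2269.7 and 1483 FPKM to 1224, 956 and 819.9 FPKM (-0.91 ± 0.18, adjusted p = 0.01), and Myh4, the IIb chain and the most abundant myosin, was at 8497, 7604 and 8787 FPKM in the WT libraries and 9809.5, 9299 and 10306 FPKM in those labelled KO and did not pass (0.24 ± 0.08, adjusted p = 0.0652). Mylpf, the fast regulatory light chain, rose by 0.51 ± 0.08 (adjusted p = 0.00483), and Myl1, the fast essential light chain, fell (-0.50 ± 0.09, adjusted p = 0.00703). Tnnt3, fast troponin T, rose from 16198, 14592 and 17133 FPKM to 21517, 23387 and 20747 FPKM (0.46 ± 0.09, adjusted p = 0.00952). Tcap, telethonin, a clock-controlled cap of titin, rose by 0.54 ± 0.06 (adjusted p = 0.00102). Of 13 slow-fibre genes only Mybpc1 changed (2 fell without WT replicate 2 or KO replicate 2, 2 rose without WT replicate 2). Mybph was at 14.2, 63.4 and 47.5 FPKM in the WT libraries and 109.8, 109 and 68.9 FPKM in those labelled KO and did not pass (adjusted p = 0.071), and Myh7, the slow myosin, was at 0.47 FPKM or less in every library.

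The proteasome had 14 of 39 subunits higher and 5 lower (median 0.19). Psmd14, the deubiquitinase of the lid, went from 26.4, 26.1 and 25.9 FPKM to 36.6, 35.5 and 38.7 FPKM (0.48 ± 0.06, adjusted p = 0.00144), Psmc6, an ATPase of the base, from 65.3, 62.8 and 63.7 FPKM to 87.5, 90.9 and 86.1 FPKM (0.46 ± 0.05, adjusted p = 0.00113), and Psmb1 of the core rose by 0.37 ± 0.05 (adjusted p = 0.00255). Psmb6, the caspase-like catalytic subunit, fell (-0.44 ± 0.06, adjusted p = 0.00229). Without WT replicate 2 or KO replicate 1, 8 rose, and the fewest falls were 3, without WT replicate 1 or 2. In autophagy and the lysosome 8 of 42 rose and 1 fell (3 fell without WT replicate 3 and 2 without KO replicate 3). Lamp1, a lysosomal membrane protein, was at 232, 231 and 234 FPKM in the WT libraries and 409.9, 415 and 437 FPKM in those labelled KO (0.85 ± 0.05, adjusted p = 5.85e-05). Bnip3, a mitophagy receptor, and Atg4a, a protease that processes the Atg8 proteins, rose by 0.64 ± 0.08 (adjusted p = 0.00143) and 0.76 ± 0.08 (adjusted p = 0.000723). Gabarap, an Atg8 protein, rose by 0.36 ± 0.07 (adjusted p = 0.0111), while Map1lc3a (LC3A), of the same family, fell from 163, 169 and 139 FPKM to 65.1, 57.96 and 65.3 FPKM (-1.30 ± 0.09, adjusted p = 8.99e-05). Pink1 and Ctsd did not pass (0.07 ± 0.06 and 0.01 ± 0.09). With 1 library left out, 4 to 6 genes of the list rose: 4 without WT replicate 1 or KO replicate 3, and 5 without WT replicate 3 or KO replicate 1. Of 25 atrophy ligases and FoxO factors 6 rose and 4 fell. Klhl41, a sarcomere-associated adaptor of a ubiquitin ligase, rose by 0.49 ± 0.08 (adjusted p = 0.00445), and Fbxo31 and Foxo4 fell (-0.75 ± 0.12, adjusted p = 0.00361, and -0.41 ± 0.08, adjusted p = 0.00916). With WT replicate 1 or 2 left out, 2 rose.

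Genes of the unfolded protein response in the endoplasmic reticulum rose in 7 of 19 tested genes with 0 falls, but none of the 7 held in every alternative. Hspa5 (BiP) was at 43.6, 59.96 and 45.8 FPKM in the WT libraries and 81.3, 74.8 and 63.5 FPKM in those labelled KO (0.55 ± 0.13, adjusted p = 0.0213), and it did not pass without WT replicate 1 or 3 or without KO replicate 1 or 2 (adjusted p 0.0561 to 0.076). The list had 0 rises without WT replicate 1 or KO replicate 1, 2 without KO replicate 2 and 3 without WT replicate 3, and 1 fell without KO replicate 3. Heat shock proteins and cochaperones rose in 8 of 32 cases and fell in 2 (1 fell without WT replicate 2 or 3 or KO replicate 2). Hspb7, a small heat shock protein of muscle, went from 142, 238 and 244 FPKM to 542, 432 and 366 FPKM (1.12 ± 0.22, adjusted p = 0.00945), and Hspa4l fell (-0.81 ± 0.12, adjusted p = 0.00272). That list had 3 rises without WT replicate 1 or 2, 2 without KO replicate 1 and 4 without KO replicate 2. In the integrated stress response 3 of 11 fell and 0 rose. Ddit3 (CHOP) went from 20.4, 22.9 and 27.7 FPKM to 10.1, 12.4 and 8.21 FPKM (-1.14 ± 0.15, adjusted p = 0.00183), while Atf4 did not pass (0.00 ± 0.07). Of 78 cytosolic ribosomal proteins 2 rose and 3 fell, beside 22.3% called over all genes (0 fell without WT replicate 1 or 2 or KO replicate 2, 12 without WT replicate 3 and 1 without KO replicate 1). Translation control and mTOR genes had 3 rises and 3 falls among 24, 12.5% each, beside 9.43% and 12.9% over all genes. Rictor rose by 0.56 ± 0.09 (adjusted p = 0.00329) and Akt1s1, an inhibitor of mTORC1, fell (-0.50 ± 0.07, adjusted p = 0.00221).

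Glutathione and NRF2 target genes had 6 rises and 4 falls among 31 (2 fell without WT replicate 1 or 2). These were 19.4% and 12.9% of the list, beside 9.43% and 12.9% over all genes. Gstm7, a glutathione transferase, went from 1.85, 1.45 and 1.72 FPKM to 17.4, 18.4 and 16.7 FPKM (2.79 ± 0.09, adjusted p = 5.57e-06), and its relative Gstm2 from 45.5, 61 and 60.3 FPKM to 102, 109 and 111 FPKM (0.95 ± 0.11, adjusted p = 0.00106). Both lie in a family of close copies that can share reads, so the split between them is uncertain. Nqo1, a quinone reductase, went from 9.84, 8.85 and 10.2 FPKM to 33.6, 39.9 and 32 FPKM (1.76 ± 0.10, adjusted p = 3.75e-05). Mgst1 and Cat (catalase) fell (-0.81 ± 0.10, adjusted p = 0.0014, and -0.46 ± 0.08, adjusted p = 0.00555). Haem synthesis and breakdown, which makes the ligand of the receptors, had 2 rises and 5 falls among 19. Urod fell (-0.41 ± 0.07, adjusted p = 0.00663) and Uros rose by 0.44 ± 0.07 (adjusted p = 0.00439); these 2 held in every alternative. The counts moved with single libraries: 3 fell without WT replicate 1 or KO replicate 2, 2 without WT replicate 2 or KO replicate 3 and 1 without KO replicate 1, and 1 rose without WT replicate 1 or 2. Mb, myoglobin, did not pass (0.09 ± 0.14).

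Secreted factors of muscle fell in 5 of 17 cases and rose in 2 (1 rose without WT replicate 1 or 3 or KO replicate 1 or 2). Fndc5, the precursor of irisin, went from 48.5, 59.8 and 67.3 FPKM to 29.5, 27.7 and 24.1 FPKM (-1.08 ± 0.12, adjusted p = 0.00104), and Il15 from 6.23, 8.03 and 6.11 FPKM to 2.16, 3.31 and 2.01 FPKM (-1.17 ± 0.16, adjusted p = 0.00202). Dkk3 and Vegfb fell (-1.37 ± 0.18, adjusted p = 0.00164, and -0.49 ± 0.07, adjusted p = 0.00195), and Gdf11 rose by 0.83 ± 0.14 (adjusted p = 0.00581). Glucocorticoid-responsive genes had 3 rises and 1 fall among 23 (2 fell without KO replicate 1); Tsc22d3 (GILZ) was the fall, from 72.8, 98.8 and 60.4 FPKM to 35.6, 37.2 and 33.01 FPKM (-1.08 ± 0.16, adjusted p = 0.00254), against the rise of Klf15 given above. Of 22 immediate early genes 1 fell and 0 rose (2 fell without KO replicate 1 or 2, 1 rose without WT replicate 2 and 3 without KO replicate 3). Nr4a1 was at 92.03, 128 and 31.9 FPKM in the WT libraries and 60.98, 146 and 16.1 FPKM in those labelled KO, highest in replicate 2 and lowest in replicate 3 of both genotypes, and did not pass (adjusted p = 0.708). Of 13 genes listed as circadian repression targets of muscle, 4 rose (Nr1d1, Dbp, Myod1 and Tcap) and 3 fell, Pdp1 among them.

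**Figure D5:**
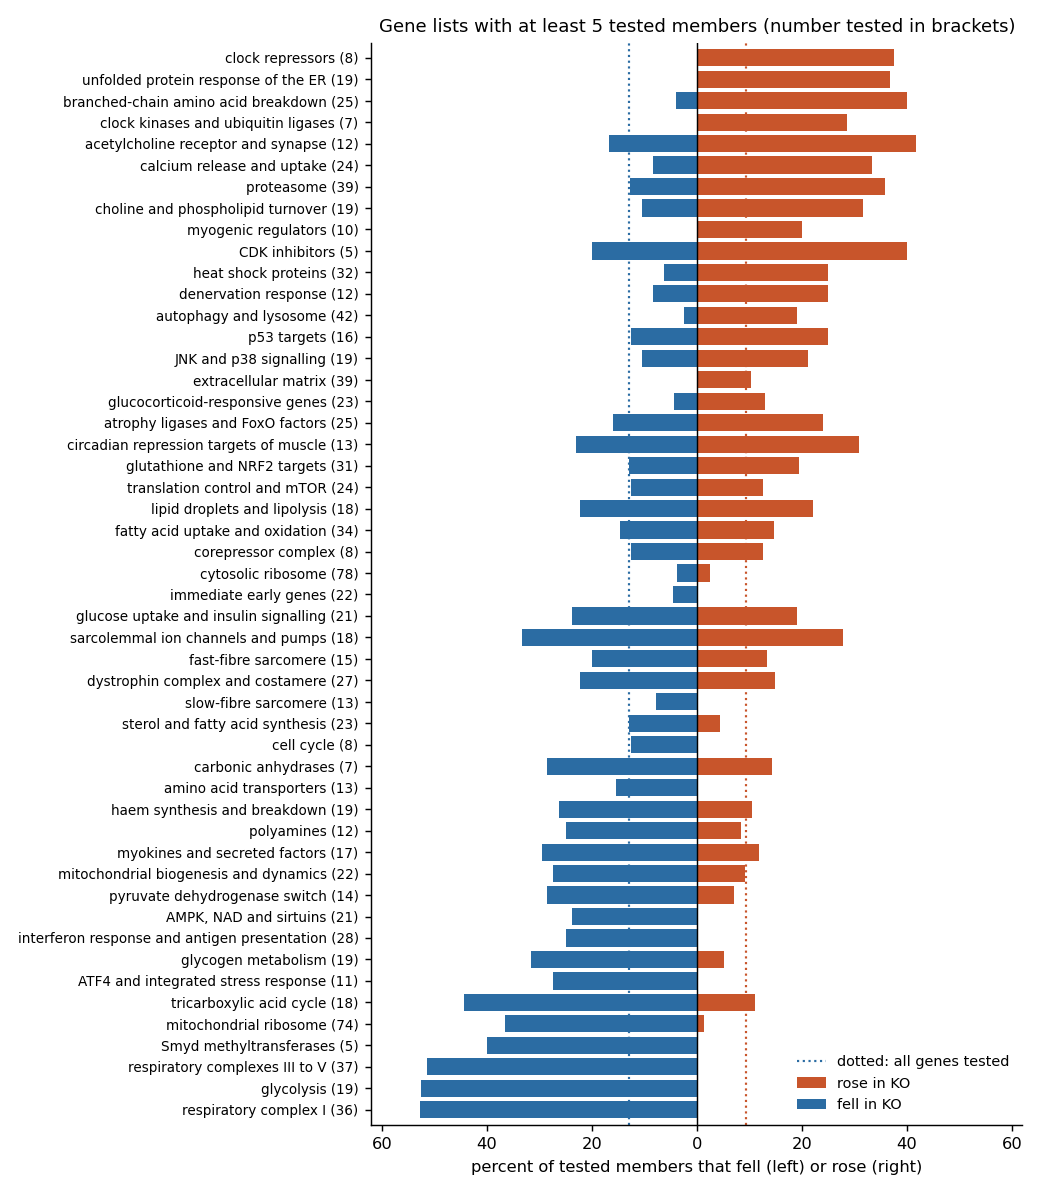
For each gene list with at least 5 tested members (number in brackets), the percent that rose (orange, right) and fell (blue, left), with dotted lines at the shares over all genes tested (9.43% and 12.9%). Respiratory complex I, glycolysis and complexes III to V have 19 of 36, 10 of 19 and 19 of 37 members lower and none higher.

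Markers of the cells in the muscle were measured beside these changes. The muscle identity was clear: the 8 fibre markers summed to 55846 to 64312 FPKM in the WT libraries and 71108 to 75222 FPKM in those labelled KO, and 4 of the 8 rose. All 8 differences were positive. Of 9 endothelial markers 1 fell, Kdr (-0.46 ± 0.14, adjusted p = 0.0453), which did not pass without WT replicate 1 or 2 or without KO replicate 1 or 3 (adjusted p 0.0967 to 0.127), and the list summed to 123 to 158 FPKM against 111 to 124 FPKM. All 9 differences were negative (median -0.22). In 5 of the 9 every library labelled KO lay below every WT library, beside 23.0% of all genes. Of 8 fibroblast markers and 8 tested macrophage markers none passed, and their sums overlapped (215 to 319 against 238 to 369 FPKM, and 48.7 to 66.3 against 49.5 to 89.8 FPKM), with replicate 3 labelled KO highest in both. The differences were negative in 4 of the 8 fibroblast and 3 of the 8 macrophage markers. Of 39 extracellular matrix genes 4 rose (10.3%, beside 9.43% over all genes) and 0 fell (2 rose without WT replicate 1 or KO replicate 1, 2 or 3, 5 fell without WT replicate 3). Lox, a collagen crosslinking enzyme, went from 1.63, 2.47 and 1.16 FPKM to 3.79, 4.65 and 7.49 FPKM (1.18 ± 0.24, adjusted p = 0.0109). Of 6 tested adipocyte markers 1 fell, Car3, which muscle fibres also express. All 6 differences were negative (median -0.47). Adipoq was at 4.23, 7.64 and 4.23 FPKM in the WT libraries and 3.72, 2.99 and 2.51 FPKM in those labelled KO and did not pass (adjusted p = 0.0684), and the list without Car3 summed to 169.3 to 238.4 FPKM against 146.6 to 178.2 FPKM; the part of fat tissue in the fall of Car3 was not tested. Lymphocyte markers summed to under 1 FPKM in every library. Of 28 interferon response and antigen presentation genes 7 fell and 0 rose (median -0.30). Igtp, an interferon-induced GTPase, went from 7.52, 5.74 and 6.37 FPKM to 2.75, 2.75 and 3.15 FPKM (-0.95 ± 0.11, adjusted p = 0.00106), and Psmb10, an immunoproteasome subunit, from 6.95, 6.84 and 6.32 FPKM to 3.64, 3.01 and 2.75 FPKM (-0.90 ± 0.10, adjusted p = 0.00106). That list had 12 falls without WT replicate 3, 3 without WT replicate 2 and 2 without WT replicate 1, KO replicate 1 or KO replicate 2.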

How the data were processed

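The 12 libraries of the series are whole-muscle RNA sequencing, of which the 6 taken at ZT22 give every value here. The authors deposited 1 table of FPKM per gene and library; the unit was read from the table's header and values, and the submitters' processing notes name HISAT2, HTSeq and DESeq2 (1.8.2) and the builds GRCm38 and mm10, with no role given. No columns of per-sample values were left unmapped (0). The table has 14583 entries. Of these, 82 without values and 230 exact repeats were dropped, and of 2 differing entries of 1 symbol, Plin2, the higher was kept. This left 14270 genes, 14081 of them found in GENCODE M21. Sums of FPKM were 455742 to 470954 per library. Reads were not counted again: the count tests planned for a count table (edgeR, DESeq2) were not run, since FPKM are not counts.

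log2(FPKM + 1) of genes averaging 1 FPKM or more was fitted with limma 3.58.1 in R 4.3.3 (empirical Bayes with an intensity trend), with Benjamini-Hochberg adjustment over all genes tested. The fit was tested on simulated data. The fold understates changes of weakly expressed genes, and FPKM are relative to all RNA of a library. Tables and figures used Python 3.11.15, pandas 2.3.3, numpy 2.4.6, scipy 1.17.1 and matplotlib 3.10.9. Library depth was estimated from the spacing of low values, with a weak fit (mean cosine 0.1602 to 0.2006, where 1.0 is exact), so whole reads were not recovered. Replicates are separate samples per the labels, and their spread may be technical. Gene lists and marker lists were chosen with earlier results of these data known, and so give no independent support. Named genes are the receptors and Thra, the 15 largest rises and falls with groups apart, every tested member of the lists of the clock, CDK inhibitors and synapse, the 6 called members of smallest adjusted p and the 2 most abundant uncalled ones of each other list, and defining cell markers; exceptions are stated. The 16 alternatives were other pseudocounts (0.1, 0.5), no filter or one of 5 FPKM, a replicate block, all 12 libraries, robust or untrended empirical Bayes, median-of-ratios scaling, removal of a transcript length trend, and each library left out; a gene untested under the stricter filter was not counted as lost. Promoter windows are from RefSeq. Some genes of the lists are not reported here by name.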

Additional observations from a re-analysis of the deposited data

How the results depend on the processing

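The count of 2261 genes (954 higher, 1307 lower) was 2256 and 2260 with a pseudocount of 0.1 and 0.5, 2149 with no filter, 2012 with a mean of at least 5 FPKM, 1829 with all 12 libraries (711 higher, 1118 lower), 2293 with robust empirical Bayes, 2009 without the intensity trend, and 2302 both after median-of-ratios scaling (1239 higher, 1063 lower) and after removal of the length trend (1185 higher, 1117 lower). Those scalings moved the median difference of all genes from -0.04 to 0.01 and 0.00. Leaving out 1 library gave 1358 to 2297 calls, 567 to 810 higher and 755 to 1487 lower. Fewest were called without WT replicate 1 (1358; 567 higher, 791 lower), KO replicate 1 (1389; 582 higher, 807 lower) and WT replicate 2 (1416; 755 lower); each such fit has fewer samples. With the replicate number as a block 1823 genes passed (751 higher, 1072 lower), 1702 of them among the 2261. Same-numbered libraries deviated together by r of -0.13, 0.21 and 0.06, and other pairs of WT and KO libraries by -0.20 to 0.13. With 3 libraries per group, these values cannot show whether same-numbered samples share more than a number. Of 251 named genes that passed, 177 held in all 16 alternatives that tested them and none reversed, and 1022 of all genes did (432 higher, 590 lower). Pik3r1, Chrnb1, Vegfb and Mt2 held without each library but did not pass in the fit of all 12 libraries (adjusted p 0.0595, 0.374, 0.0513 and 0.183), and Tnnt3 did not pass with no filter (adjusted p = 0.0932); the cause was not tested. The depth of about 11400000 to 13600000 fragments and n = 3 limit small differences and weakly expressed genes.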

Other observations

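Some genes not described above held in all 16 alternatives that tested them. Tfb2m, a factor of mitochondrial transcription, went from 35.9, 34 and 35.8 FPKM in the WT libraries to 47.1, 44.8 and 44.99 FPKM in those labelled KO (0.36 ± 0.06, limma adjusted p = 0.00436), against the falls of the respiratory chain. Fitm1, which helps form lipid droplets, went from 229.9, 227 and 205 FPKM to 178, 179 and 180.3 FPKM (-0.30 ± 0.06, limma adjusted p = 0.0119). Rragd, a GTPase that brings mTORC1 to the lysosome, went from 74.1, 75.5 and 73.1 FPKM to 99.4, 92.8 and 89.6 FPKM (0.33 ± 0.06, limma adjusted p = 0.00655). Foxo6 went from 3.46, 3.16 and 2.51 FPKM to 1.28, 1.5 and 1.16 FPKM (-0.80 ± 0.12, limma adjusted p = 0.00355). In each of these 4 genes the groups did not overlap.

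Markers of smaller cell populations were tested in small numbers, beside 22.3% called over all genes. Of 4 tested tendon markers Scx rose and Thbs4 fell, with sums of 29.8 to 48.0 FPKM in the WT libraries and 25.6 to 34.2 FPKM in those labelled KO. Of 3 tested satellite cell markers 1 fell (Chrdl2, which did not pass without WT replicate 1 or 2 or without KO replicate 1, 2 or 3 (adjusted p 0.104 to 0.126)), and Pax7 and Myf5 were under the level filter. Of 3 tested Schwann cell and nerve markers Mbp rose. The E-box word stood in 12.7% of the promoter windows of genes that rose, 9.04% of those that fell and 10.2% of those that did not pass.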
